A study of Mus musculus with 4 samples.

Results

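Cholesterol synthesis and uptake was examined across 31 genes of the mevalonate and sterol pathway in cultured ureters of newborn mice. The genes were chosen by name from a list of sterol sensing, synthesis, storage, movement and export genes. The rule used no measured value, but the list was drawn up with earlier results of these data known. They made up 31 of the 29924 gene names on the arrays and were read by 46 of the 39429 probes. All 31 genes and all 46 of their probes were tested, and each of these probes was well above background in all 8 pools.

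Ureters were taken from NMRI mice at P0 and kept for 8 days in explant culture, either with the carrier DMSO or with 2 µM of purmorphamine, an agonist of SHH signaling that acts on Smoothened. The *Pparg-cKO* ureters had the genotype Pax2-cre/+; Pparg (fl/fl), and the control ureters Pparg (fl/?), for which the labels list no Cre. The *Pax2-cre* transgene recombines in the ureteric epithelium, whereas the arrays were hybridized with RNA of whole ureters, so that fewer cells of a type and less RNA per cell cannot be told apart in any value below. The 4 groups had 2 pools each, which were sorted by sex: replicate 1 was male and replicate 2 female. The 4 two-color arrays each held the DMSO pool and the purmorphamine pool of the same genotype and sex. The dyes AlexaFluor555 and AlexaFluor647 were exchanged between the replicates, so that sex, dye and replicate number are the same split. The number of ureters per pool is not given in the sources used here, and p-values measure only the spread between these pools.

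The genotype could not be checked by *Pparg* itself. Where its probe lies relative to the floxed exons was not determined here, and the mean log2 intensity was 15.57 in *Pparg-cKO* and 15.05 in control pools with DMSO. *Shh*, which encodes the ligand made by the epithelium, differed by -2.93 on the log2 scale between *Pparg-cKO* and control pools with DMSO (adjusted p = 0.00268, limma). *Ptch1*, the SHH receptor and a target of the pathway, rose with purmorphamine by 1.00 in control ureters (adjusted p = 0.0462, limma) and by 1.62 in *Pparg-cKO* ureters (adjusted p = 0.0143, limma).

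Cells make cholesterol from acetyl-CoA through mevalonate, the isoprenoid units, squalene and lanosterol. The genes of this route are switched on together by SREBP2, the product of *Srebf2*, when sterols in the endoplasmic reticulum are low: SCAP then carries SREBP2 to the Golgi, whereas the INSIG proteins hold it back when sterols are plentiful. The liver X receptors, encoded by *Nr1h2* and *Nr1h3*, are activated by oxysterols and drive the exporters *Abca1* and *Abcg1*. In the urothelium, sterols contribute to the apical membrane of the superficial cells, and cholesterol is also known as a ligand of Smoothened and as the lipid attached to SHH.

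The 250 bases before the RefSeq start site were searched in 25 of the 31 genes, for which 32 windows were listed on GRCm38.p6. The CCAAT box, bound by NF-Y, which acts with SREBP2 at many sterol genes, was searched as CCAAT on both strands. It was found in 20 of the 32 windows, 62.5%, and in 33.8% of all 32851 windows of the same length. The GC box, a general promoter motif searched as GGGCGG on both strands, was found in 22 of the 32 windows, 68.8%. Its share of all windows was 32.7%, so a higher share in these genes was not particular to the CCAAT box. A sterol regulatory element was searched as TCACNCCAC on both strands and was found in 1 window of these genes, that of *Hmgcs1*, and in 1.05% of all windows. A match is a description of these letters and not of binding. The windows below belong to genes of synthesis and sterol sensing whose values are given in detail, with CCAAT matches (ATTGG where they lie on the opposite strand) and, in *Hmgcs1*, the sterol regulatory element in capitals. Each is written 5′ to 3′ on the strand of the gene.
*Hmgcs1* (chr13:119690101-119690350, + strand): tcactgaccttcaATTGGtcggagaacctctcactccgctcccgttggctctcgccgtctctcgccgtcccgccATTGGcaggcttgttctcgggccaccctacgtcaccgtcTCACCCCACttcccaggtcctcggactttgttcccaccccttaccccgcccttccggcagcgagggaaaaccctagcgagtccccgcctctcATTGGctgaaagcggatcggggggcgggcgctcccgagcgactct
*Idi1* (chr13:8885356-8885605, + strand): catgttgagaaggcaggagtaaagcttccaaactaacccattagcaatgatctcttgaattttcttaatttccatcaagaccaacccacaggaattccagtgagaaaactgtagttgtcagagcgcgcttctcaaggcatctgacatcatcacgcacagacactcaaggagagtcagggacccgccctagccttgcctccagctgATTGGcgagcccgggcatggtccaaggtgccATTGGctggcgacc
*Cyp51* (chr5:4104698-4104947, - strand): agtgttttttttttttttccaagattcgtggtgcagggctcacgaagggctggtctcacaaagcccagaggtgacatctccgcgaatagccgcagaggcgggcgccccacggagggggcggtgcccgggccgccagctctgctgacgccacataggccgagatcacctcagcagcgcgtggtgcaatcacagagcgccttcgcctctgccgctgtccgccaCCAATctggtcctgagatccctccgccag
*Hsd17b7* (chr1:169969206-169969455, - strand): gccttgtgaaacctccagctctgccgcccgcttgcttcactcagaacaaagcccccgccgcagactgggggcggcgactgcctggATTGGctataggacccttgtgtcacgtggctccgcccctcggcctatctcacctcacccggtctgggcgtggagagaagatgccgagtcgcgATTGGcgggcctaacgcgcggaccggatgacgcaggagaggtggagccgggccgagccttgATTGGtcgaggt
*Insig1* (chr5:28071162-28071411, + strand): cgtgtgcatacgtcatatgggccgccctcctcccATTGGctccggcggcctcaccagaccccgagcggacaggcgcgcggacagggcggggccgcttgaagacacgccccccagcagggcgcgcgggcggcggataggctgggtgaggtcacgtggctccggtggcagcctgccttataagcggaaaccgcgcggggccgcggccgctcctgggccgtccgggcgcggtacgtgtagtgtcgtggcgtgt

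Purmorphamine was accompanied by lower signals across the synthesis genes in both genotypes, with changes that were small for each gene. In control ureters, 17 of the 19 synthesis genes had both purmorphamine pools below both DMSO pools, and the median over the 19 was -0.36 on the log2 scale, beside 0.0155 over all 20231 genes tested. In *Pparg-cKO* ureters, the same count was 17 of 19, with a median of -0.52 beside -0.0024 over all genes. Over all genes tested, pools did not overlap and were lower with purmorphamine in 22.0% of genes in control and in 28.2% in *Pparg-cKO* ureters. These comparisons share no pool, and 17 of the 19 genes were lower on all 4 arrays, as were 20.4% of all genes. The exceptions were *Hmgcs1* and *Ggps1*.

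None of the 31 genes passed the limma test for purmorphamine in either genotype at an adjusted p of 0.05. Of all genes, 1.20% were called in control and 4.65% in *Pparg-cKO* ureters. At an unadjusted p under 0.05, 11 members were lower and 0 higher in control, beside 9.84% and 9.77% of all genes. In *Pparg-cKO* ureters 19 were lower and 1 higher, beside 12.4% and 9.85%. By the rule of the study's methods, which asks for at least 1.5-fold in the same direction on both arrays at an intensity above 100 and carries no test, 1 member was lower in control (*Stard4*) and 4 were lower in *Pparg-cKO* ureters (*Stard4*, *Idi1*, *Cyp51* and *Hsd17b7*), with 0 higher in either. The rule counts a gene if any of its probes passes. In control ureters only the dimmer probe of *Stard4* passed, whereas the brightest was 1.46-fold lower on the male array. In *Pparg-cKO* ureters the brightest probes of all 4 genes passed. The background of lower genes by this rule was 3.69% in control and 4.79% in *Pparg-cKO* ureters.

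**Figure D1:**
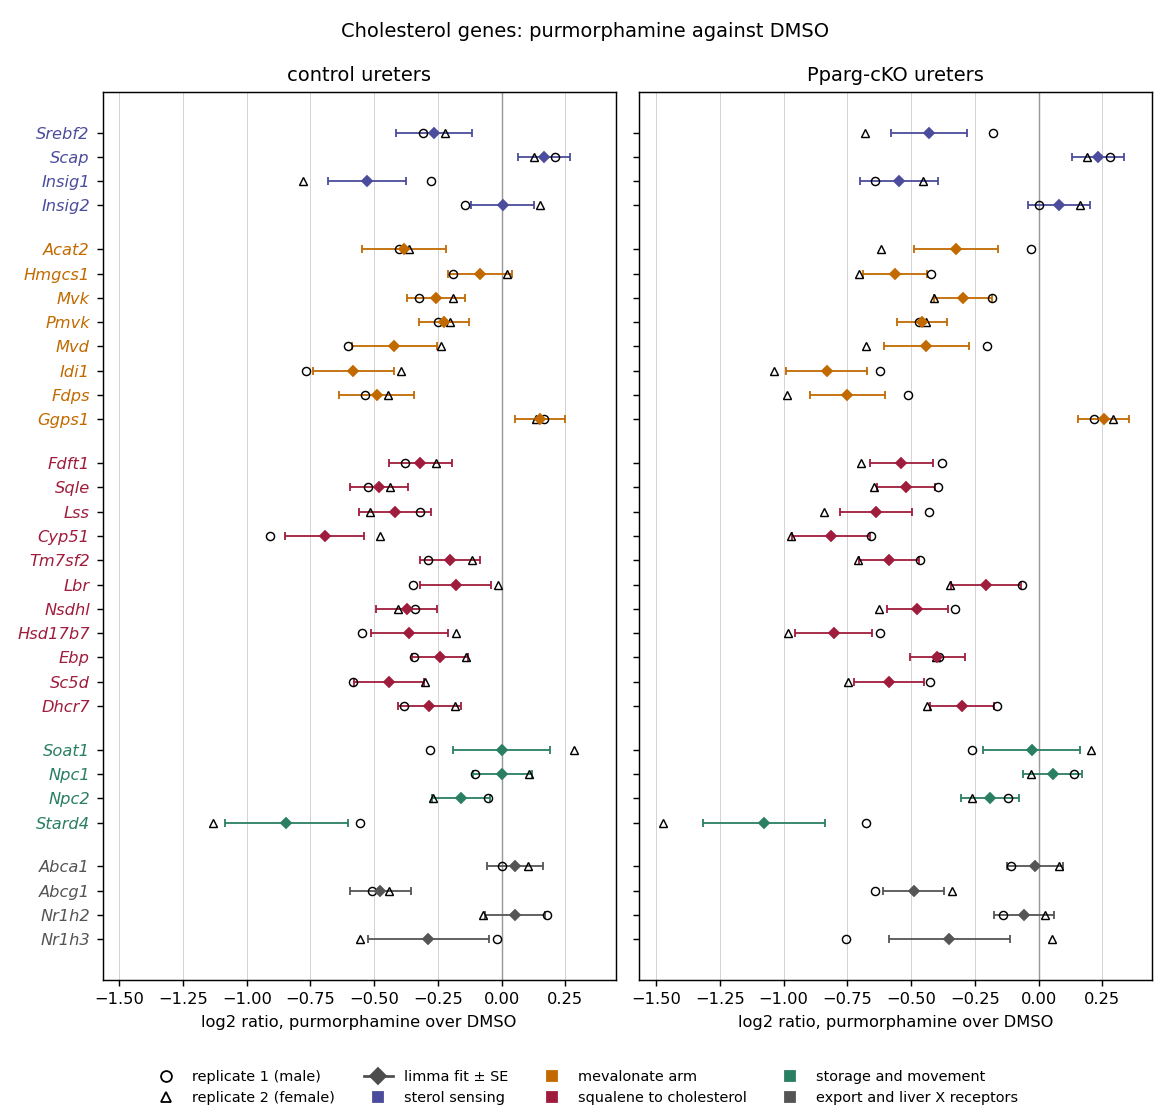
The log2 ratio of purmorphamine over DMSO on the x axis is plotted for the 31 members in 5 role groups, with control ureters on the left and *Pparg-cKO* ureters on the right. Circles are the male arrays, triangles the female arrays and diamonds the limma fit with its SE. All 11 genes from squalene to cholesterol lie to the left of 0 on all 4 arrays.

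The mevalonate arm leads from acetyl-CoA to farnesyl diphosphate. *Idi1*, which encodes the isomerase that makes dimethylallyl diphosphate (probe at chr13:8891524-8891583, mm9), had log2 intensities of 14.49 and 14.35 in the control DMSO pools and of 13.73 and 13.96 with purmorphamine. The *Pparg-cKO* pools lay at 14.54 and 14.76 with DMSO and at 13.92 and 13.72 with purmorphamine. The treated pools were below the untreated pools in both genotypes, with ratios of -0.58 (SE 0.16, adjusted p = 0.16, limma) in control and of -0.83 (SE 0.16, adjusted p = 0.0596, limma) in *Pparg-cKO* ureters. *Fdps*, the synthase of farnesyl diphosphate, differed by -0.49 (SE 0.15) and -0.75 (SE 0.15, adjusted p = 0.0613, limma).

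*Hmgcs1*, which encodes the cytosolic HMG-CoA synthase, had log2 intensities of 14.98 and 14.96 in control DMSO pools and of 14.79 and 14.98 with purmorphamine, which overlapped. The *Pparg-cKO* pools had 15.08 and 15.29 with DMSO and 14.66 and 14.58 with purmorphamine, which did not. The ratio was -0.09 (SE 0.13) in control and -0.56 (SE 0.13, adjusted p = 0.0817, limma) in *Pparg-cKO* ureters. A dimmer probe of *Hmgcs1* gave 0.0072 in control and -0.51 in *Pparg-cKO* ureters.

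Of the other kinases and enzymes of the arm, *Acat2*, *Mvk*, *Pmvk* and *Mvd* had log2 ratios of -0.42 to -0.23 in control and of -0.46 to -0.30 in *Pparg-cKO* ureters. *Ggps1*, which draws farnesyl diphosphate off the sterol route to geranylgeranyl diphosphate, had positive ratios of 0.15 (SE 0.10) and 0.26 (SE 0.10). By this brightest probe, it was the synthesis gene with both purmorphamine pools above both DMSO pools in each genotype, and neither difference passed the test. Of its dimmer probes, 1 gave -0.05 in control and 0.11 in *Pparg-cKO* ureters, and another gave 0.22 and 0.03.

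The 11 genes from squalene synthase onwards had log2 ratios of -0.69 to -0.18 in control and of -0.81 to -0.21 in *Pparg-cKO* ureters. *Cyp51*, the lanosterol demethylase (probe at chr5:4081471-4081530, mm9), had log2 intensities of 12.60 and 12.40 in control DMSO pools and of 11.69 and 11.92 with purmorphamine. In *Pparg-cKO* ureters it had 12.53 and 12.82 with DMSO and 11.87 and 11.85 with purmorphamine. The treated pools lay near the same level in both genotypes, and the ratios were -0.69 (SE 0.15, adjusted p = 0.116, limma) and -0.81 (SE 0.15, adjusted p = 0.0586, limma).

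*Hsd17b7*, which encodes a keto-reductase of the demethylation steps (probe at chr1:171880203-171880262, mm9), had 11.39 and 11.18 in control DMSO pools and 10.85 and 11.01 with purmorphamine. The *Pparg-cKO* pools had 11.22 and 11.65 with DMSO and 10.60 and 10.67 with purmorphamine. The ratios were -0.36 (SE 0.15, adjusted p = 0.292, limma) and -0.80 (SE 0.15, adjusted p = 0.0584, limma). Its other probes gave -0.39 and -0.63 in *Pparg-cKO* ureters.

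*Fdft1*, *Sqle* and *Lss*, which make squalene, its epoxide and lanosterol, had ratios of -0.32, -0.48 and -0.42 in control and of -0.54, -0.52 and -0.64 in *Pparg-cKO* ureters. A dimmer probe of *Fdft1* gave -0.03 in *Pparg-cKO* ureters. The later enzymes *Tm7sf2*, *Nsdhl*, *Ebp*, *Sc5d* and *Dhcr7* had ratios of -0.44 to -0.20 in control and of -0.59 to -0.30 in *Pparg-cKO* ureters. *Lbr*, a sterol reductase that is also a receptor of the nuclear lamina, had the ratios nearest to 0, at -0.18 (SE 0.14) and -0.21 (SE 0.14).

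Among the sterol sensing genes, *Insig1* (probe at chr5:28404246-28404305, mm9) is itself a target of SREBP2. It had log2 intensities of 14.11 and 14.53 in control DMSO pools, 13.83 and 13.75 in control purmorphamine pools, 13.56 and 13.70 in *Pparg-cKO* DMSO pools and 12.92 and 13.25 in *Pparg-cKO* purmorphamine pools. The values were thus lower in both purmorphamine pools than in both DMSO pools of each genotype. The ratios were -0.53 (SE 0.15, adjusted p = 0.177, limma) in control and -0.55 (SE 0.15, adjusted p = 0.13, limma) in *Pparg-cKO* ureters. *Srebf2* had ratios of -0.27 (SE 0.15) and -0.43 (SE 0.15). *Scap* had positive ratios of 0.17 (SE 0.10) and 0.23 (SE 0.10), and *Insig2* had 0.0039 and 0.08 (SE 0.12).

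*Stard4*, which encodes a sterol carrier between membranes, had the lowest ratio of the 31 genes in both genotypes. Its log2 intensities were 11.06 and 11.08 in control DMSO pools and 10.51 and 9.94 with purmorphamine. In *Pparg-cKO* ureters they were 11.36 and 12.06 with DMSO and 10.68 and 10.58 with purmorphamine. The pools did not overlap in either genotype, and the ratios were -0.84 (SE 0.24, adjusted p = 0.17, limma) and -1.08 (SE 0.24, adjusted p = 0.082, limma). A dimmer probe of *Stard4* passed the test, with -1.22 (adjusted p = 0.0461, limma) in control and -1.21 (adjusted p = 0.027, limma) in *Pparg-cKO* ureters. *Soat1*, the ester-forming enzyme, and *Npc1*, the lysosomal exporter, lay within 0.06 of 0, and *Npc2* had -0.16 and -0.19 (SE 0.11).

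Of the export genes, *Abcg1* had log2 intensities of 12.84 and 12.66 in control DMSO pools and of 12.33 and 12.22 with purmorphamine. The *Pparg-cKO* pools had 12.60 and 12.50 with DMSO and 11.96 and 12.16 with purmorphamine. The pools did not overlap, and the ratios were -0.48 (SE 0.12, adjusted p = 0.142, limma) and -0.49 (SE 0.12, adjusted p = 0.0992, limma). *Abca1* and *Nr1h2* lay within 0.06 of 0 in both genotypes.

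**Figure D2:**
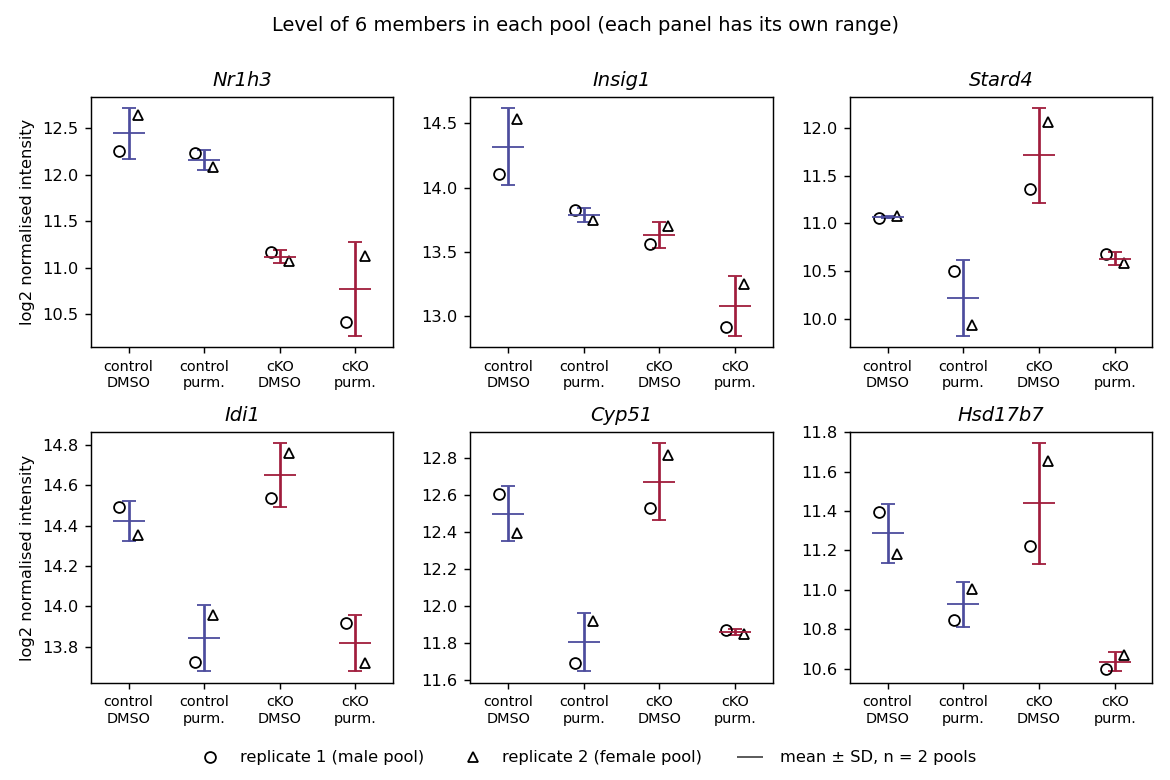
The log2 normalised intensity on the y axis is plotted for 6 members in the 4 groups, with a circle for the male pool, a triangle for the female pool and a bar for the mean with its SD (n = 2 pools), each panel having its own range. *Nr1h3* separates by genotype, *Idi1*, *Cyp51*, *Hsd17b7* and *Stard4* separate by treatment, and *Insig1* is lower in *Pparg-cKO* pools and with purmorphamine.

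The difference of the purmorphamine effects between the genotypes was tested for each gene and passed the threshold in none of the 31 members, nor in any of the other genes (0%). The *Pparg-cKO* ratio was below the control ratio in 17 of the 19 synthesis genes, with a median difference of -0.15 beside -0.02 over all genes. Of the 20231 genes tested, 11217 had a *Pparg-cKO* ratio below the control ratio. In an unadjusted test, *Hmgcs1* alone had a p under 0.05, with a difference of -0.48 (SE 0.18, adjusted p = 1, limma). Over all genes, 319 had a positive and 350 a negative difference at this unadjusted p. The DMSO pools of *Pparg-cKO* ureters enter this difference and were themselves apart: the female pool was above the male pool in 18 of the 19 synthesis genes, with a median of 0.31 beside -0.02 over all genes. Of all genes, 46% were higher in that female pool. In the control DMSO pools, 15 of the 19 synthesis genes were lower in the female pool, with a median of -0.12, while 48.7% of all genes were higher in it. Array by array, the median purmorphamine ratio of the synthesis genes was -0.38 and -0.24 in control and -0.39 and -0.68 in *Pparg-cKO* ureters, male first.

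Markers of proliferating cells were lower with purmorphamine, as were most synthesis genes. Of 5 such markers, 4 were tested. Their summed normalized intensity was 21700 to 23600 in control DMSO pools and 13400 to 14200 in control purmorphamine pools. It was 16600 to 17700 in *Pparg-cKO* purmorphamine pools. Of the *Pparg-cKO* DMSO pools, the male pool had 24300 and the female pool, in which 18 synthesis genes were above the male pool, had 38500. All 4 had purmorphamine pools below DMSO pools in both genotypes, with medians of -0.69 and -0.85, and 1 of them was called in *Pparg-cKO* ureters. Between the genotypes, all 4 had differences above 0, with medians of 0.44 with DMSO and 0.33 with purmorphamine and 0 called. The synthesis genes had medians of 0.11 and -0.07 in these comparisons. *Aurkb* was not above background in any group.

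Markers of macrophages, cells in which *Abcg1* and *Nr1h3* are also made, moved with purmorphamine. Of 8 markers, 7 were tested, and all 7 had negative ratios in both genotypes, with medians of -0.89 and -0.77 and 3 called lower in each. Their summed normalized intensity was 199000 to 247000 in control DMSO pools and 122000 to 169000 with purmorphamine. In *Pparg-cKO* ureters it was 197000 to 233000 with DMSO and 142000 to 145000 with purmorphamine. *Cd163* was not above background. Markers of superficial urothelial cells moved the other way: all 6 had positive ratios, with medians of 0.78 and 1.58, and 0 were called in control and 5 higher in *Pparg-cKO* ureters. Smooth muscle and endothelial markers had positive medians as well, of 0.71 and 1.11 in control and of 0.85 and 1.10 in *Pparg-cKO* ureters. Basal urothelial markers had medians of -0.18 and -1.12 over 4 genes, with 1 called lower in each genotype. Kidney tubule markers had summed intensities of 1050 to 1220 in *Pparg-cKO* DMSO pools and of 448 to 750 in the other groups. Of these 5, *Umod*, *Slc12a1*, *Slc34a1* and *Lrp2* were not above background in control pools, so no size of change is given for them. All 5 were above background in *Pparg-cKO* DMSO pools. With DMSO, 2 of the 5 were called higher in *Pparg-cKO* than in control pools, beside 3.69% of all genes called. With purmorphamine, 2 were called lower in *Pparg-cKO* ureters, beside 4.65%. The part of these cell types in the values of the cholesterol genes was not tested. Steroidogenic cells, another site of cholesterol use, left few traces, with summed intensities of 721 to 1180 over their 4 tested markers and *Hsd3b1* not above background.

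**Figure D3:**
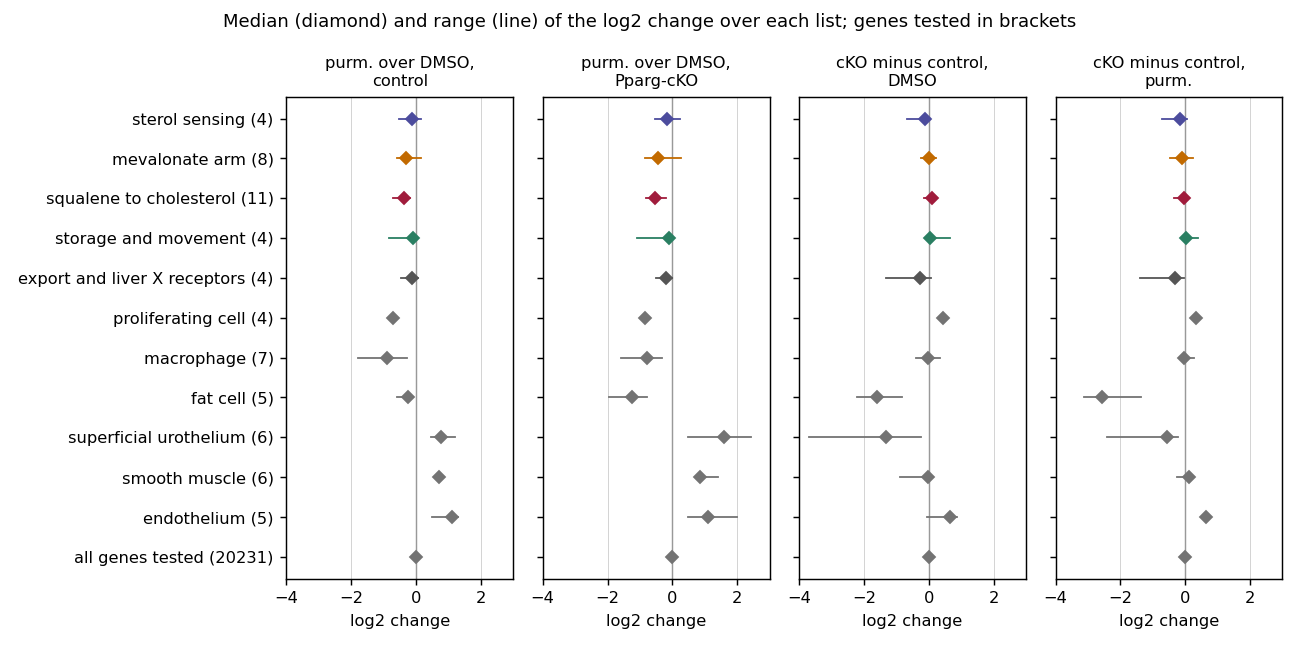
The median log2 change (diamond) and its range over the genes of a list (line) on the x axis are plotted for the 5 role groups of the members, for 6 lists of cell type markers and, as a median alone, for all genes tested, in 4 comparisons. The sterol synthesis groups have negative medians with purmorphamine in both genotypes, of -0.32 and -0.36 in control and of -0.45 and -0.54 in *Pparg-cKO* ureters, while between the genotypes they were 0.02 and 0.11 with DMSO and -0.11 and -0.04 with purmorphamine.

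Between the genotypes, the synthesis genes differed little and the liver X receptor gene *Nr1h3* differed most. With DMSO, 1 of the 31 members was called, beside 3.69% of all genes, and with purmorphamine the call was again 1 of 31, beside 2.90%. Both calls were *Nr1h3*. As shares of the members, these calls are near the background. At an unadjusted p under 0.05, 5 members were lower and 1 higher with DMSO, beside 7.78% and 8.01% of all genes. With purmorphamine 4 were lower and 0 higher, beside 8.89% and 6.70%. By the methods' rule, *Nr1h3* and *Insig1* were lower with DMSO, beside 2.92% of all genes, and *Nr1h3* with purmorphamine, beside 3.23%. With DMSO, 6 of the 31 members had both *Pparg-cKO* pools below both control pools, beside 21.8% of all genes. With purmorphamine the count was 16 of 31, of which 9 were synthesis genes, beside 24.7% of all genes. The genotype and the purmorphamine comparisons share the same pools and are not independent of each other.

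*Nr1h3* (probe at chr2:91024250-91024309, mm9) encodes LXRα, the liver X receptor of fat, liver and macrophages, and is a known target of PPARG in fat cells and macrophages. It had log2 intensities of 12.25 and 12.64 in control DMSO pools and of 11.17 and 11.07 in *Pparg-cKO* DMSO pools. With purmorphamine it had 12.23 and 12.08 in control and 10.41 and 11.13 in *Pparg-cKO* ureters. All 4 *Pparg-cKO* pools were below all 4 control pools. The log2 difference was -1.33 (SE 0.24, adjusted p = 0.038, limma) with DMSO, a level 2.51-fold lower, and -1.39 (SE 0.24, adjusted p = 0.0392, limma) with purmorphamine, 2.62-fold lower. A dimmer probe gave -1.37 (adjusted p = 0.0246, limma) and -1.33 (adjusted p = 0.0352, limma). With any 1 array left out, the difference stayed between -1.52 and -1.13 with DMSO and between -1.75 and -1.03 with purmorphamine, and the adjusted p lay between 0.0501 and 0.224 with DMSO and between 0.0299 and 0.218 with purmorphamine, so that the call remained only without the female *Pparg-cKO* array, with purmorphamine. With the replicate number, which is also sex and dye, as a block, the call was lost (adjusted p = 0.0696 with DMSO and 0.0848 with purmorphamine, limma).

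Markers of fat cells were lower in the same pools as *Nr1h3*. Of 6 markers, 5 were tested. Their summed normalized intensity was 241000 to 317000 in control and 109000 to 151000 in *Pparg-cKO* ureters with DMSO. With purmorphamine it was 196000 to 246000 in control ureters. The male *Pparg-cKO* pool then had 22000 and the female one 141000. The male pool was also the pool with the lowest *Nr1h3*. The median log2 difference over the markers was -1.60 with DMSO and -2.58 with purmorphamine, with 0 called in either. *Lep* was not above background. Superficial urothelial markers had a median of -1.32 with DMSO, 4 of 6 called lower, and of -0.56 with purmorphamine, 2 called lower. Macrophage markers had medians of -0.01 and -0.03, with 0 called. The part of fat or superficial cells in the value of *Nr1h3* was not tested.

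*Insig1* differed by -0.69 (SE 0.17, adjusted p = 0.0995, limma) between the genotypes with DMSO, a level 1.61-fold lower in *Pparg-cKO* pools, and by -0.71 (SE 0.17, adjusted p = 0.0986, limma) with purmorphamine. The pools did not overlap in either comparison. *Abca1*, the exporter of cholesterol to apolipoproteins, had log2 intensities of 14.16 and 14.17 in control and of 13.80 and 13.83 in *Pparg-cKO* pools with DMSO. With purmorphamine these were 14.17 and 14.27 in control and 13.70 and 13.91 in *Pparg-cKO* pools. The differences of -0.35 (SE 0.10, adjusted p = 0.151, limma) and -0.42 (SE 0.10, adjusted p = 0.0996, limma) did not pass the test. *Abcg1* differed by -0.20 (SE 0.12) and -0.21 (SE 0.12), and *Nr1h2*, which encodes LXRβ, by 0.07 (SE 0.12) and -0.04 (SE 0.12).

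**Figure D4:**
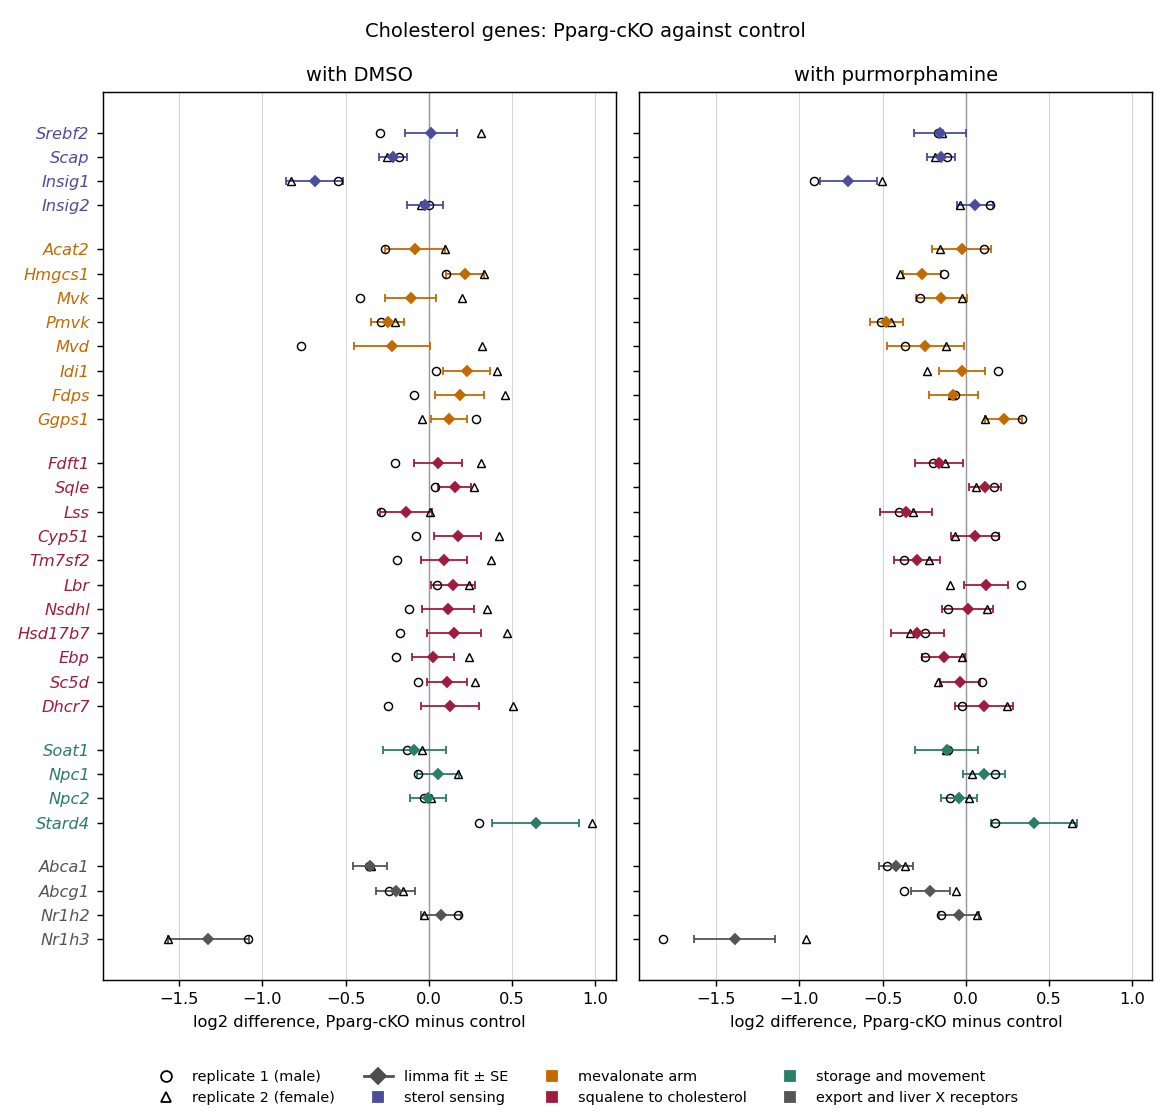
The log2 difference of *Pparg-cKO* minus control on the x axis is plotted for the 31 members in 5 role groups, with DMSO on the left and with purmorphamine on the right. Circles are the differences of the male pools, triangles those of the female pools and diamonds the limma fit with its SE. *Nr1h3* lies farthest from 0 in both, at -1.33 and -1.39, and the synthesis genes lie between -0.48 and 0.23.

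The 19 synthesis genes had genotype differences of -0.25 to 0.23 with DMSO, with a median of 0.11 beside 0.0038 over all genes, and of -0.48 to 0.23 with purmorphamine, with a median of -0.07. None was called and none met the methods' rule. *Pmvk*, the phosphomevalonate kinase, had the lowest of these differences in both, at -0.25 (SE 0.10, adjusted p = 0.308, limma) with DMSO and -0.48 (SE 0.10, adjusted p = 0.064, limma) with purmorphamine. With DMSO, the male pools gave a median of -0.17 and the female pools of 0.31, so that the direction depended on the pair of pools. *Stard4* was 0.64 (SE 0.26, adjusted p = 0.311, limma) higher in *Pparg-cKO* pools with DMSO and 0.41 (SE 0.26, adjusted p = 0.536, limma) higher with purmorphamine, while *Srebf2* differed by 0.01 (SE 0.16) and -0.15 (SE 0.16). *Scap* differed by -0.22 (SE 0.09) and -0.15 (SE 0.09), and *Insig2*, *Soat1*, *Npc1* and *Npc2* by -0.12 to 0.11.

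Of 32 other genes of sterol and fatty acid handling, 31 were tested. With purmorphamine, 2 of them fell in control ureters, beside 1.20% of all genes called, and 3 fell and 1 rose in *Pparg-cKO* ureters, beside 4.65%. *Ch25h*, which encodes the enzyme that makes 25-hydroxycholesterol, an oxysterol that holds back SREBP2, had log2 intensities of 12.68 and 11.44 in control DMSO pools and of 10.12 and 9.17 with purmorphamine. The *Pparg-cKO* pools had 11.70 and 11.49 with DMSO and 9.36 and 8.87 with purmorphamine. It fell by 2.42 (SE 0.13, adjusted p = 0.0168, limma) in control and by 2.48 (SE 0.13, adjusted p = 0.0108, limma) in *Pparg-cKO* ureters. *Soat2*, which forms cholesterol esters, fell by 1.09 (SE 0.11, adjusted p = 0.0374, limma) and by 0.98 (SE 0.11, adjusted p = 0.0237, limma). *Vldlr*, a lipoprotein receptor, rose by 1.09 (SE 0.15, adjusted p = 0.0322, limma) in *Pparg-cKO* ureters. In control ureters its ratio was 0.68 (SE 0.15, adjusted p = 0.111, limma), also with both purmorphamine pools above both DMSO pools. Between the genotypes, 1 of the 31 was called lower in each treatment, beside 3.69% and 2.90% of all genes called, and 21 and 20 of the 31 had differences below 0. With DMSO this was *Fasn*, the fatty acid synthase, at -1.05 (SE 0.21, adjusted p = 0.0496, limma). *Fasn* was nearly as low with purmorphamine, at -1.06 (SE 0.21, adjusted p = 0.0538, limma). The gene called with purmorphamine was *Lpcat3*, a phospholipid acyltransferase and known target of the liver X receptors, at -0.61 (SE 0.10, adjusted p = 0.0357, limma). *Lpcat3* differed by -0.38 (SE 0.10, adjusted p = 0.118, limma) with DMSO. The median over the 31 was -0.23 and -0.30 with purmorphamine in control and *Pparg-cKO* ureters and -0.07 and -0.13 between the genotypes with DMSO and purmorphamine.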

How the data were processed

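Total RNA of sex-sorted pools was labelled and hybridized to 4 two-color arrays on 1 slide, read with Agilent Feature Extraction 10.7.3.1. Per the file headers, spots carry a mean intensity and a local background intensity per dye, not normalized, and a processed intensity from which the scanner software had removed background and dye bias. The deposited log10 ratio is red over green and was used only to check the dye direction. The deposited score of the series' value file is a fold change, signed, of treated over untreated pools with no stated normalization, and its log2 correlated at 0.995 to 0.998 with the scaled ratios below. Each array had 157716 non-control spots, 4 per probe. Of these, 66.3% to 70.5% were well above background in a channel and 0 were saturated. The number of 2 pools per group limits the precision.

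The members and lists were chosen with earlier results of these data known. Mean intensities were corrected with normexp (offset 50), normalized by loess within arrays and averaged over the spots of a probe without outlier-marked spots. For the genotype comparisons, limma 3.58.1 (R 4.3.3, with version 1.17.8 of data.table) fitted the separate channels after Aquantile normalization (intraspot correlation 0.0634, from 4000 probes). For purmorphamine it fitted the log ratios within arrays, turned to purmorphamine over DMSO, with 1 coefficient for each genotype. The spread was estimated over all arrays. A probe was tested if both pools of any group had it well above background (27066 probes), p-values were adjusted over these by Benjamini-Hochberg, and 0.05 was the threshold. Genes, 20231 in number, were represented by their brightest probe. The scripts were tested on simulated data.

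For the methods' rule, the geometric mean of a probe's processed signals was taken, channels were brought to a 75th percentile of 1500, and 15 was the floor. The summed intensities add, on the linear scale, the normalized channel values of the genotype fit over the tested markers of a list. A gene passed that rule if any of its probes did and none passed in the other direction. All 31 members are named. Other genes of the pathway were named among those past the threshold. The deposited fold changes of the authors were used only for the correlation above and as an alternative in the closing section. Their p-values and lists were not used. Probe positions are those of the files (mm9) and promoter positions those of RefSeq (GRCm38.p6).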

Additional observations from a re-analysis of the deposited data

Results flagged for a closer look

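By its brightest probe, *Hmgcs1* differed with opposite signs in the 2 genotype comparisons, in both pairs of pools. With DMSO it was higher in *Pparg-cKO* than in control pools, by 0.10 in the male and by 0.33 in the female pair (0.21 in the limma fit). With purmorphamine it was lower, by -0.13 in the male and by -0.40 in the female pair (-0.26 in the fit). The difference of the purmorphamine effects had a p of 0.0428 before and of 1 after Benjamini-Hochberg adjustment in limma.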

How the results depend on the processing

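Of the medians over the 31 members, those for purmorphamine kept their sign under all alternatives run, which were the processed signals, no filter on dim probes, the second brightest probe, a replicate block and its crossed form, the authors' values and leaving out each array. Between the genotypes with DMSO the median lay near 0 and took either sign (-0.0077 with the second brightest probe). With purmorphamine it was -0.12 with quantile normalization and -0.0904 with the second brightest probe, and -0.15 to -0.10 with an array left out. The median for purmorphamine in *Pparg-cKO* ureters was -0.46 to -0.38 with an array left out.

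The call of *Nr1h3* between the genotypes was lost, leaving 0 members, with the processed signals (adjusted p = 0.0986 with DMSO and 0.0953 with purmorphamine, limma) and with no filter on dim probes (0.0668 and 0.0682). With an array left out, 0 members were called with DMSO and 0 to 1 with purmorphamine. With the second brightest probe, 1 member, *Stard4*, was called for purmorphamine in each genotype. In *Pparg-cKO* ureters, leaving out an array gave 0 to 1 members: *Cyp51* without either control array, where the spread was estimated from fewer arrays, and *Stard4* without the male *Pparg-cKO* array.

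By the methods' rule with a fold of 2, 1 member remained between the genotypes with DMSO and 0 for purmorphamine in *Pparg-cKO* ureters. From a single pair of pools, the rule named 3 to 4 and 2 to 3 members between the genotypes, with DMSO and purmorphamine, and 3 to 6 and 7 to 15 for purmorphamine in control and *Pparg-cKO* ureters. The genes it named in all rose as well, from 849, 962, 988 and 1335 to 2372 to 2394, 1620 to 1878, 2476 to 2633 and 1887 to 3010.

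Of all genes, the calls were 746 and 587 between the genotypes and 243 and 941 for purmorphamine. With the processed signals they were 434 and 203, and 0 and 0. With no filter on dim probes the last pair was 0 and 286, and with the authors' values 0 and 0.

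The replicate numbers mark sex and dye, not animals. Over all genes, the difference between the replicates correlated between the genotypes at -0.149 with DMSO and 0.47 with purmorphamine, and these are 2 pairs of pools, so that the block was kept as an alternative. With a replicate block, 0 members were called between the genotypes (*Nr1h3* had an adjusted p of 0.0696 and 0.0848, limma) and 0 and 1 (*Stard4*) for purmorphamine in control and *Pparg-cKO* ureters. With the numbers of the *Pparg-cKO* arrays exchanged, an alternative chosen after seeing the data, a crossed replicate block called 0 and 0 members between the genotypes and 0 and 3 for purmorphamine. The cause of these changes was not tested. Leave-one-out fits used the intraspot correlation of all arrays.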
